A study of Arabidopsis thaliana with 36 samples.

Results

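RpoB binding along the chloroplast genome of Arabidopsis thaliana leaves was compared between plants kept in darkness for 24 h (Night) and plants sampled 2 h into the light period of their usual cycle (Day). The comparison used 12 of the 36 libraries of the study: 3 replicates each of Night ChIP, Night input, Day ChIP and Day input. All 4 groups came from rosette leaves of wild type Col0 plants at an age of 14 days, so that darkness was the labelled difference between them. Chloroplasts pooled from a mass of leaves were crosslinked with formaldehyde, DNA bound by RpoB was recovered with an anti-RpoB antibody (ChIP), and unselected chloroplast DNA served as input. The labels do not say whether replicates were separate batches of plants, so p-values measure the spread between these samples, which may be technical.

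RpoB is the beta subunit of the plastid-encoded RNA polymerase (PEP), the bacterial-type enzyme that transcribes most photosynthesis genes, the rRNA operon and most tRNA genes of the chloroplast. Nucleus-encoded sigma factors bring PEP to its promoters. A second, phage-type polymerase encoded in the nucleus (NEP) transcribes several housekeeping genes, including the rpoB operon that encodes PEP itself. Plastid genes lie in transcription units of a single gene or of several genes read from a common promoter, and RpoB can sit at the promoter or along the transcribed body. Chloroplast transcription is known to respond to light.

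Binding is given as enrichment, the log2 of ChIP over input after each library was scaled to its own total coverage. An enrichment of 0 is the average of the plastid genome. The change of a gene is its Night enrichment minus its Day enrichment. It was measured for 113 genes, 56 transcription units and 2564 windows of 50 bp. Positions are those of the plastid sequence of TAIR10, numbered from 1. Genes of the inverted repeat are averaged over both copies, of which the first is cited. Where symbols recur, the locus tag is added.

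Mean coverage per position was 102, 480.2 and 236 in the Night ChIP libraries, against 425, 1039 and 768 in the Day ChIP libraries. Inputs lay between 1017 and 1395 at Night and between 1050.3 and 1227 by Day. Depth was thus lower on average in the Night ChIP libraries, with overlap between the groups, and its part in the results was not tested. The rRNA operon and its mirrored copy took 17.8%, 15.5% and 19.9% of coverage in the Night ChIP libraries, against 37.6%, 33.6% and 45.3% in the Day ChIP libraries. With the Night and Day inputs in the same limma fit, 0 of 113 genes (0%) differed between them, with 1 gene at an unadjusted p under 0.05. A fit of the 6 inputs by themselves called 15 genes, each of them lower at Night.

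RpoB was spread more evenly over the genome at Night than by Day. Genes that were poor in RpoB by Day held relatively more of it at Night. Genes that were rich in it by Day held relatively less as a group, but not throughout, and the order of genes was largely kept. Among the 38 genes lowest by Day, the median enrichment was −1.03 at Night and −2.10 by Day. The middle 37 genes had medians of −0.35 at Night and −0.85 by Day, and the 38 highest genes had medians of 0.98 at Night and 1.55 by Day. The median change of single genes was 1.22 among the lowest, 0.51 among the middle and −0.14 among the highest genes. For the 23 tRNA genes outside the inverted repeat, with a median Day enrichment of 1.59, the median change was 0.05.

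This narrowing was seen in every library. The SD of enrichment across the 113 genes was 1.07, 1.17 and 0.92 in the Night replicates, against 1.59, 1.54 and 1.65 in the Day replicates. All Night values lay below all Day values. The difference of the means was −0.54, with an exact two-sided permutation p of 0.1, the smallest that 3 against 3 libraries can give. A least-squares line of Night on Day enrichment over the genes had a slope of 0.60 and an intercept of 0.29, and the SD of the genes around it was 0.43. Fitted to each Night replicate, the slope was 0.60, 0.66 and 0.54. The line met equality at a Day enrichment of 0.72: below that level a gene on the line was higher at Night, and above it a gene on the line was lower at Night. Of the variance of the change across genes, 68.1% went with Day enrichment, as a description, since the change contains the Day value and genes are not independent replicates. These values are for log2 enrichment. Between fold enrichments without log2, the line over the genes had a slope of 0.89 and an intercept of 0.25. Differences between genes on the line thus shrank less on that scale. A smaller contrast of binding and a larger share of unbound DNA in the Night immunoprecipitates cannot be told apart from coverage alone.

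**Figure D1:**
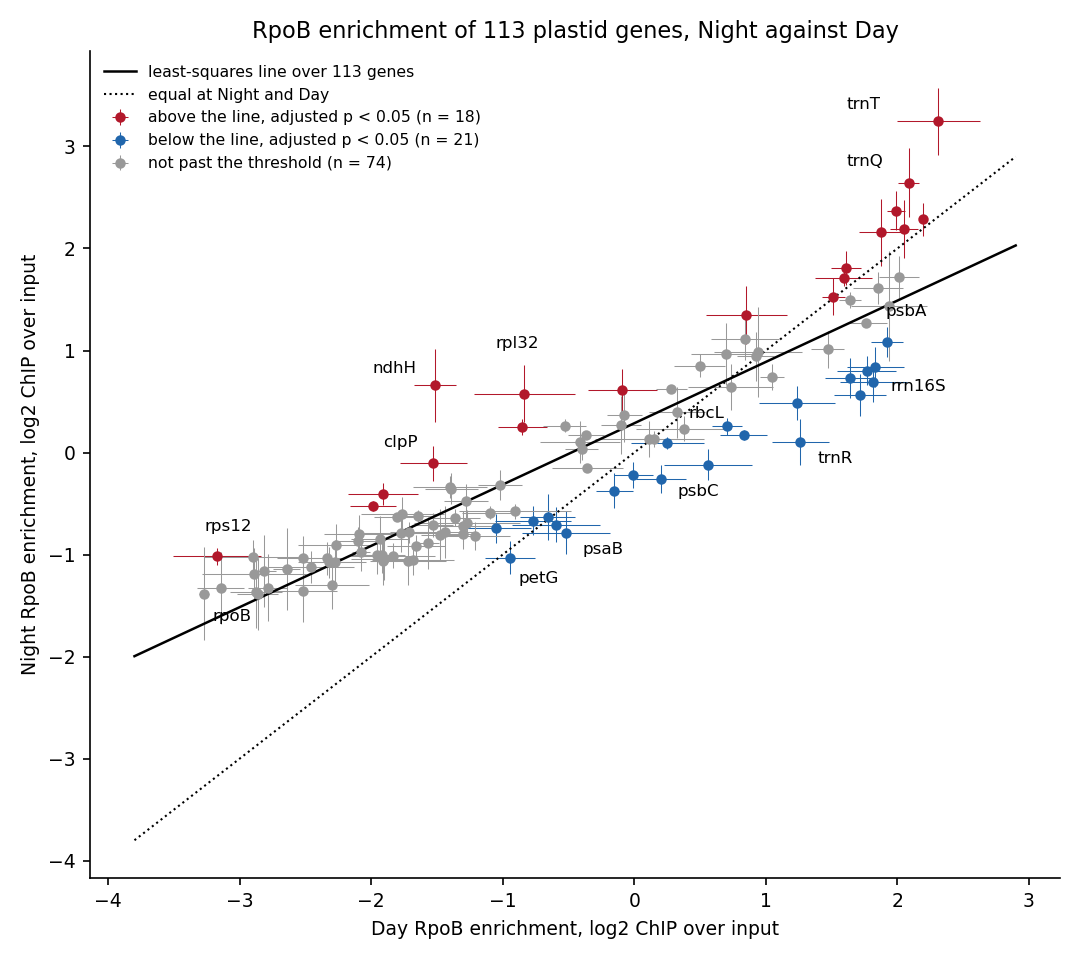
Each point is 1 of 113 plastid genes, with its Night enrichment (vertical axis, log2 ChIP over input) against its Day enrichment (horizontal axis) and bars for the SD of 3 replicates each. The solid line has a slope of 0.60, shallower than the dotted line of equality; 18 genes (red) lay above it and 21 (blue) below it past the threshold, with trnT, trnQ and ndhH farthest above and trnR among those farthest below.

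The change of single genes was tested with limma over all 113 genes, with Benjamini-Hochberg adjustment and a threshold of 0.05. It passed for 80 genes (70.8%), of which 66 (58.4%) were higher and 14 (12.4%) lower at Night. The split depended on the scaling: 35 rose and 36 fell when libraries were centred on their median gene, and 41 rose and 30 fell when they were scaled to the single-copy regions. These scalings shifted every change by −0.55 and −0.44. The position of a gene relative to the narrowing line does not depend on such a shift, since the line moves with it. Genes were therefore also tested for their departure, the Night enrichment minus the value of the line at the gene's Day enrichment, with the line taken as known.

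The largest rises belonged to ndhH and to ribosomal protein and polymerase genes that were far below the genome average by Day. ndhH, a subunit gene of the NADH dehydrogenase-like (NDH) complex, had enrichments of 0.86, 0.87 and 0.24 at Night, against −1.40, −1.45 and −1.69 by Day. Every Night replicate was above the genome average and every Day replicate below it. The change was 2.17 ± 0.18 (SE, adjusted p 2.79e-11, limma), and 1.28 ± 0.15 of it was departure from the line (adjusted p 5.85e-08). rpoB, which encodes the precipitated protein, had −1.20, −1.72 and −1.05 at Night, against −3.08, −3.01 and −3.35 by Day, so that its replicates were well separated. Its change was 1.82 ± 0.22 (SE, adjusted p 3.31e-08) and its departure 0.27 ± 0.18, which did not pass (adjusted p 0.269) but did so without Night ChIP replicate 2, at 0.37. rps7, rps15 and rps2, which encode proteins of the small ribosomal subunit, changed by 1.88, 1.87 and 1.70, with departures of 0.29, 0.43 and 0.26 that did not pass. The departure of rps15 (adjusted p 0.0677) passed when the line was drawn in any of 3 other ways described below, at 0.42 to 0.52. rps12, whose listed span of 114 bp is the first part of a trans-spliced gene, changed by 2.15 ± 0.21 and departed by 0.60 ± 0.17 (SE, adjusted p 0.00579).

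Loci that left the line were the minority. The departure passed for 39 of 113 genes (34.5%), 18 (15.9%) above and 21 (18.6%) below. Calls varied somewhat with the scaling, although the positions do not. With centred libraries 43 genes passed and with scaling to the single-copy regions 40, each including 37 of the 39. The line can be drawn in other ways, and calls were compared under 4 lines. These were least squares, an orthogonal line (slope 0.64) and a line fitted to genes outside the inverted repeats (slope 0.66). The last was a line on the fold scale, with a slope of 0.89 between fold enrichments. Under all 4, 28 genes passed on the same side, 11 above and 17 below.

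Above the line stood a set of tRNA genes of the single-copy regions. trnT (ArthCt098, positions 31369 to 31440), a threonine tRNA gene, had 3.01, 3.62 and 3.11 at Night, against 2.56, 2.42 and 1.96 by Day. It was the most enriched gene in both conditions, and its replicates did not overlap. Its departure was 1.57 ± 0.17 (SE, adjusted p 1.04e-08). trnQ (6616 to 6687), a glutamine tRNA gene, had 2.93, 2.75 and 2.27 at Night, against 2.12, 2.15 and 2.00 by Day, again without overlap, and departed by 1.10 ± 0.14 (adjusted p 1.56e-07). For trnG (ArthCt116, 36490 to 36560), a glycine tRNA gene, the values were 2.50, 2.47 and 2.15 at Night and 2.04, 2.02 and 1.91 by Day. The groups were apart here too, and the departure was 0.89 ± 0.13 (adjusted p 1.29e-06). Such separation was common, with no overlap of Night and Day replicates in 73.5% of the 113 genes and 71.4% of the 56 units. It also depends on the scaling. Of 30 tRNA genes, 15 had a positive change, against 2 with centred libraries and 3 with scaling to the single-copy regions.

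In 3 further tRNA genes Night and Day overlapped, although the line puts genes of such high Day enrichment lower at Night. trnE (30466 to 30538), whose product carries glutamate for protein synthesis and also feeds chlorophyll synthesis, had 2.30, 2.44 and 2.12 at Night, against 2.18, 2.18 and 2.22 by Day. Its departure was 0.68 ± 0.12 (SE, adjusted p 4.35e-05). trnM (52056 to 52128) and trnfM (36704 to 36777), which encode elongator and initiator methionine tRNAs, departed by 0.75 ± 0.14 and 0.67 ± 0.13. All 3 lost the call against the line on the fold scale. The sole protein gene besides ndhH among the 8 farthest above was rpl32 (113449 to 113607), a gene for a protein of the large ribosomal subunit. It had 0.41, 0.90 and 0.42 at Night, against −0.56, −0.67 and −1.28 by Day, with a departure of 0.79 ± 0.17 (adjusted p 0.000334).

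Below the line stood the rRNA operon and its surroundings, the photosystem I core genes, and a few single genes. trnR (ArthCt127, 108302 to 108375), an arginine tRNA gene of the inverted repeat, had −0.02, −0.04 and 0.36 at Night, against 1.11, 1.17 and 1.51 by Day. All Night values were below all Day values, and the departure was −0.95 ± 0.14 (SE, adjusted p 1.7e-06). rrn16S (101012 to 102502), the gene of the small subunit rRNA, had 0.67, 0.51 and 0.89 at Night, against 1.70, 1.64 and 2.11 by Day. It departed by −0.69 ± 0.14 (adjusted p 0.000146), and its neighbour trnI (ArthCt107, 102801 to 103601), whose span includes an intron, by −0.75 ± 0.13 (adjusted p 4.35e-05).

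The photosystem I genes psaB (37375 to 39579) and psaA (39605 to 41857) encode the reaction centre proteins of that complex. psaB had −0.79, −0.998 and −0.58 at Night, against −0.20, −0.48 and −0.87 by Day. These groups overlapped, and its change of −0.27 did not pass (adjusted p 0.192), but the line gives a higher Night value at its Day level. Its departure was −0.76 ± 0.15 (SE, adjusted p 0.000146), and that of psaA was −0.64 ± 0.15 (adjusted p 0.000947). psbC (33720 to 35141) encodes an antenna protein of photosystem II and fell below the genome average at Night. It had −0.30, −0.38 and −0.11 at Night, against 0.40, 0.19 and 0.02 by Day, and departed by −0.67 ± 0.13 (adjusted p 0.000138). petG (65998 to 66111), a small subunit gene of the cytochrome b6f complex, departed by −0.75 ± 0.14 and trnS (ArthCt125, 44827 to 44913), a serine tRNA gene, by −0.74 ± 0.15.

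The departures of 3 other well-known genes did not pass, although each passed under another setting. psbA (383 to 1444), the gene of the D1 protein of photosystem II, had 1.29, 1.29 and 1.24 at Night, against 1.93, 1.74 and 1.62 by Day. Its Night replicates were the lower, and its departure of −0.07 ± 0.12 did not pass (adjusted p 0.652), but it was −0.43 and passed against the line on the fold scale (adjusted p 0.0163). psbD (32711 to 33772), the gene of the D2 protein and known for a light-responsive promoter, departed by −0.24 ± 0.13 (adjusted p 0.152). It passed at −0.28 without Day ChIP replicate 3 and at −0.33 against the line fitted outside the repeats (adjusted p 0.042). rbcL (54958 to 56397), the gene of the large rubisco subunit, had 0.64, 0.65 and 0.60 at Night, against 0.41, 0.27 and 0.17 by Day. Its departure was 0.17 ± 0.12 (adjusted p 0.284) over the whole gene, and 0.35, past the threshold, with genes under 300 bp left out.

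**Figure D2:**
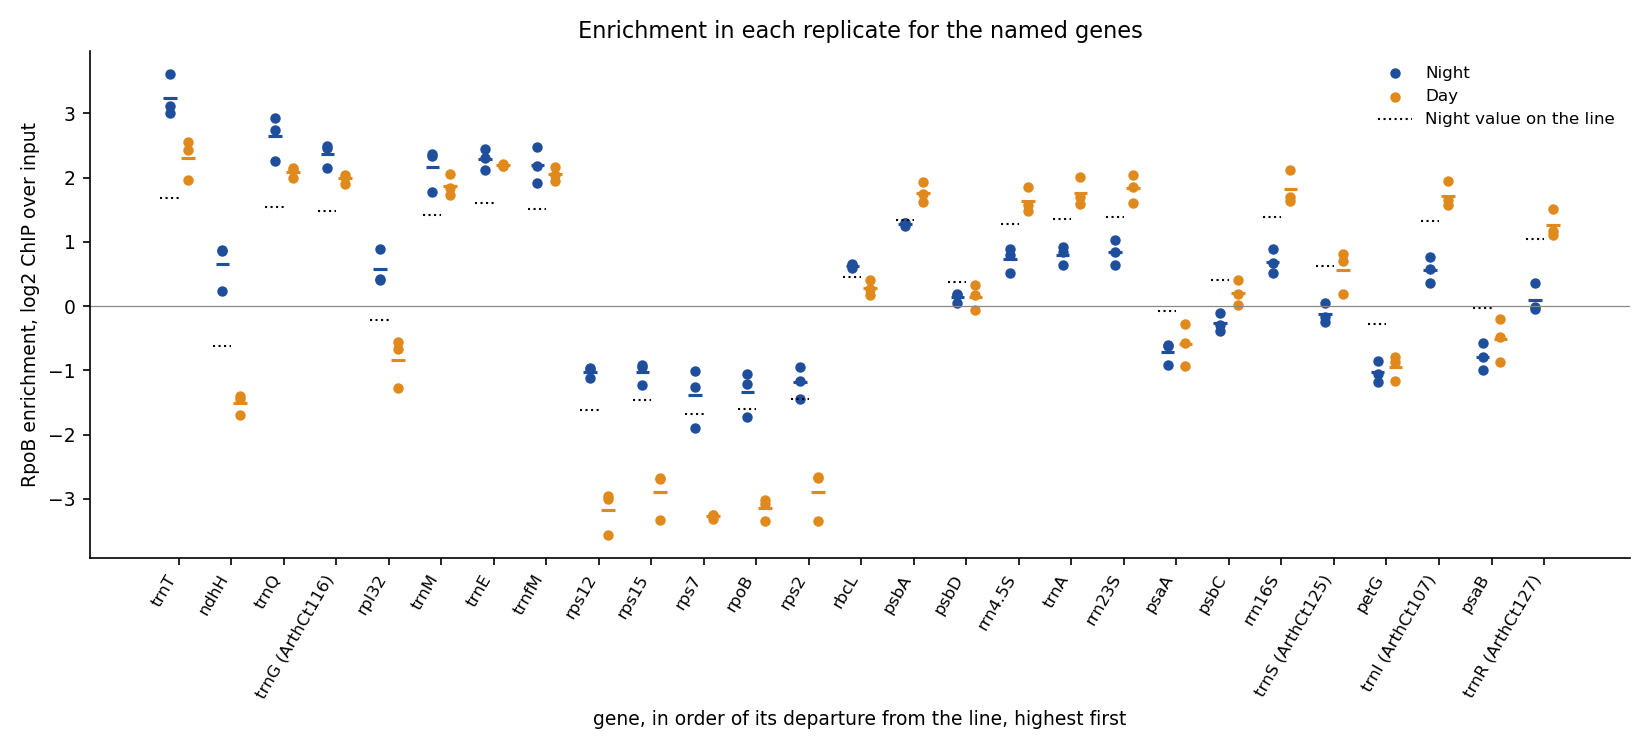
Enrichment (log2 ChIP over input) of each Night and Day replicate for 27 named genes, ordered by departure, with solid bars for the mean of 3 replicates and a dotted bar for the Night value that the line gives. Night points of trnT, ndhH and trnQ lie above the dotted bar, those of rps2, rbcL and psbA close to it, and those of psaB, rrn16S and trnR below it.

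By function, departures were unevenly placed. Over all 113 genes the median departure was 0.0050 and 18 genes passed above and 21 below. Among the 30 tRNA genes the median was 0.22, with 10 above, 8 below and 12 not called. The 23 tRNA genes outside the repeat had 10 above and 4 below, and the 7 inside it had 0 above and 4 below. Of those above, trnT (ArthCt098), trnQ, trnG (ArthCt116) and trnL (ArthCt101) passed under all 4 lines. Against the line on the fold scale, trnE, trnM, trnfM, trnF, trnV (ArthCt103) and trnG (ArthCt092) lost the call. Over all 113 genes, 11 passed above under all 4 lines. The 8 tRNA genes below kept the call under all 4. All 4 rRNA genes were below, with departures between −0.69 and −0.36. These genes share an operon and neighbouring reads, so they are not independent sites.

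Among the 11 genes of the NDH complex, which carries electrons in cyclic flow around photosystem I, 4 were above and 0 below, with a median of 0.22. They were ndhH, ndhC at 0.47, ndhA at 0.45 and ndhI at 0.38. ndhI lost the call when the enrichment values of the 6 ChIP libraries were refitted alone (adjusted p 0.0544, limma). All 11 changes were positive and past the threshold, compared with 66 of 113 genes (58.4%) over all, and 10 of 11 stayed positive when libraries were centred. This was not particular to NDH genes, since 61 of 79 protein-coding genes rose past the threshold. So did 20 of 21 ribosomal protein genes, 4 of 4 RNA polymerase genes and 8 of 8 entries of NEP genes. With centred libraries, 20, 3 and 8 of these groups had positive changes. Of the 15 photosystem II genes 4 were below, 0 above and 11 not called, with a median of −0.22. They were psbC, psbT at −0.49, psbB at −0.40 and psbZ at −0.34. Of these, psbC alone passed under all 4 lines. Against the line on the fold scale psbT, psbB and psbZ lost the call, at −0.29, −0.18 and −0.29. For photosystem I, 2 of 5 genes were below and 3 were not called, with a median of 0.047. For cytochrome b6f 1 of 6 was below, and for ATP synthase 1 of 6, which was atpE at −0.52, shares close to the 18.6% of all genes. None of the genes of these 3 complexes was above. The call of atpE was lost against the line on the fold scale, at −0.32. The 21 ribosomal protein genes had 3 above (rpl32, rps12 and rpl33) and 0 below, with a median of 0.05. Under the orthogonal line and the line fitted outside the repeats, rpl33 lost the call. The 4 RNA polymerase genes had none on either side. Of the 8 entries of genes known to be transcribed by NEP (accD, clpP, rpoB, rpoC1, rpoC2, ycf2 and the 2 listed spans of ycf1), 1 was above, clpP at 0.52, and their median was 0.08.

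**Figure D3:**
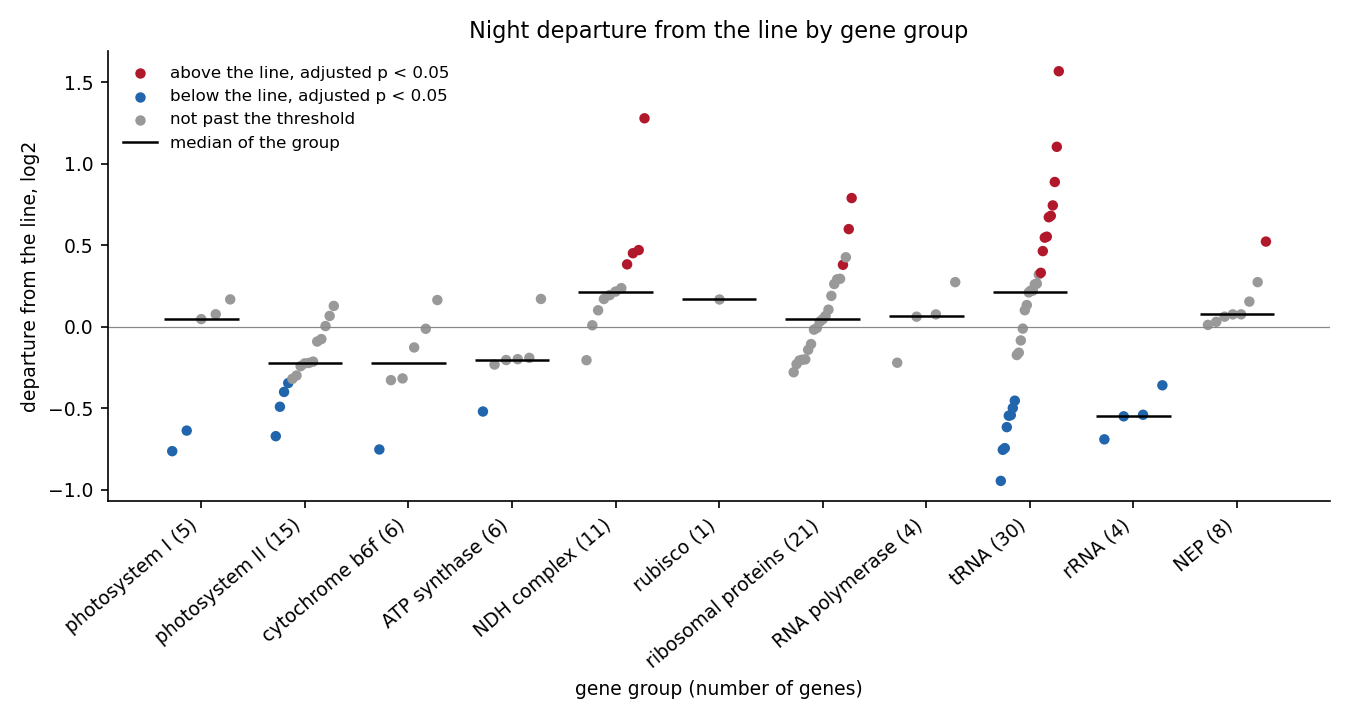
Departure from the line (log2, Night) of each gene by functional group, with the number of genes in brackets and a bar at the group's median. Photosystem II, cytochrome b6f and ATP synthase genes have medians of −0.22, −0.22 and −0.20 and rRNA genes one of −0.54, while NDH and tRNA genes have medians of 0.22; tRNA genes run between −0.95 and 1.57.

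By transcription unit, 38 of 56 changes passed the threshold (67.9%), 31 of them higher (55.4%) and 7 lower (12.5%) at Night. Of the same units, 16 of 56 units (28.6%) left the line, 9 (16.1%) above and 7 (12.5%) below. Above it were 6 tRNA units and 3 protein units. The unit of trnL (ArthCt101) and trnF, for leucine and phenylalanine tRNAs, had 2.27, 2.54 and 1.96 at Night, against 1.87, 1.77 and 1.39 by Day. Its Night replicates were all higher, and its departure of 0.97 ± 0.16 (SE, adjusted p 4.15e-05) was larger than that of either gene alone (0.55 for trnL and 0.46 for trnF), because the highest binding lay between them. The protein units were rpl32, clpP, which encodes a protease subunit, at 0.52 ± 0.15, and the NDH operon that runs through ndhH, ndhA, ndhI, ndhG, ndhE, psaC and ndhD, at 0.48 ± 0.14. Below it, after the single tRNA units trnR (ArthCt127), trnS (ArthCt125) and trnV (Arthct121), were psaA-psaB-rps14 at −0.66 ± 0.15, the rRNA operon at −0.59 ± 0.14, petL-petG at −0.53 ± 0.14 and trnK-matK at −0.50 ± 0.12. Against the line on the fold scale, trnM, trnfM, trnV (ArthCt103) and petL-petG lost the call, and trnV (Arthct121) lost it under both other scalings.

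Members of a unit did not always leave the line together. In the NDH operon the departure was 1.28 for ndhH, 0.45 for ndhA and 0.38 for ndhI, and did not pass for ndhG (0.17), ndhE (−0.20), psaC (0.08) and ndhD (0.01). In the psbD operon psbD, psbC and psbZ had departures of −0.24, −0.67 and −0.34, whereas trnG (ArthCt116), placed at its end, had 0.89. That tRNA gene lies beside trnfM on the opposite strand, and without strand the coverage of the pair cannot be assigned to one of them. In the unit of trnE, trnY and trnD the departures were 0.68, 0.22 (not passed) and −0.45. In the rRNA operon all 6 members were below the line, between −0.75 and −0.36.

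Position within the unit was measured as a gradient, the enrichment of the 5′ part minus that of the 3′ part when a unit is divided into 3 equal parts, in the 27 units of at least 1000 bp. In 10 units (37%) the gradient moved toward the 5′ end at Night, and in 3 units (11.1%) toward the 3′ end, 13 units in all (48.1%). The NDH operon had gradients of 1.27, 1.04 and 0.53 at Night, against −0.01, −0.13 and −0.15 by Day. Its 5′ part therefore carried more RpoB than its 3′ part at Night, and about as much by Day, a change of 1.05 ± 0.20 (SE, adjusted p 0.000919). ndhF, another NDH subunit gene, had −0.33, −0.58 and −0.41 at Night, against −1.31, −1.57 and −1.55 by Day. In atpB-atpE, which encodes parts of the ATP synthase, the gradient was −0.21, −0.22 and −0.20 at Night and −1.04, −1.27 and −1.28 by Day. In both units binding rose toward the 3′ end, and did so less at Night, with changes of 1.04 ± 0.11 and 0.98 ± 0.09.

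rbcL turned round: its gradient was 0.36, 0.32 and 0.35 at Night, against −0.16, −0.11 and −0.18 by Day, a change of 0.49 ± 0.08 (SE, adjusted p 0.000171). The ATP synthase unit from rps2 to atpA changed by 0.77 ± 0.21, the ribosomal protein unit from rps19 to rpoA by 0.57 ± 0.09 and rpoB-rpoC1-rpoC2 by 0.34 ± 0.08. The other 3 toward the 5′ end were rps12-rpl20, rps7-ndhB and ndhC-ndhK-ndhJ, with 1.01, 0.56 and 0.51. Toward the 3′ end were psaJ-rpl33-rps18 at −0.44, the psbB operon at −0.36 and the rRNA operon at −0.21 ± 0.08 (adjusted p 0.0389). The rRNA operon lost this call when any of 9 single libraries was left out, with changes between −0.21 and −0.17 in those refits. The psbB operon lost it when any of 4 was left out (Day ChIP replicate 3, Night input replicate 1, Day input replicate 1 or 2), with changes between −0.35 and −0.30. Between the first and last 500 bp of a unit, the change had the opposite sign for rpoB-rpoC1-rpoC2, at −0.18, and for the psbB operon, at 0.03.

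A gradient shrinks with the narrowing as levels do, so it was also set against the line, as the Night gradient minus 0.60 times the Day gradient, an alternative chosen after seeing the data. By this measure 11 of 27 units passed, 9 toward the 5′ end and 2 toward the 3′ end, and 8 of them were among the 13. The NDH operon kept the largest value, 1.01 ± 0.17, and rps2 to atpA followed with 0.64 ± 0.17. Then came atpB-atpE with 0.50 ± 0.07, ndhF with 0.45 ± 0.09 and rbcL with 0.43 ± 0.06. rps12-rpl20, rps7-ndhB, ndhC-ndhK-ndhJ, psaJ-rpl33-rps18 and the psbB operon did not pass, with values between −0.10 and 0.30.

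**Figure D4:**
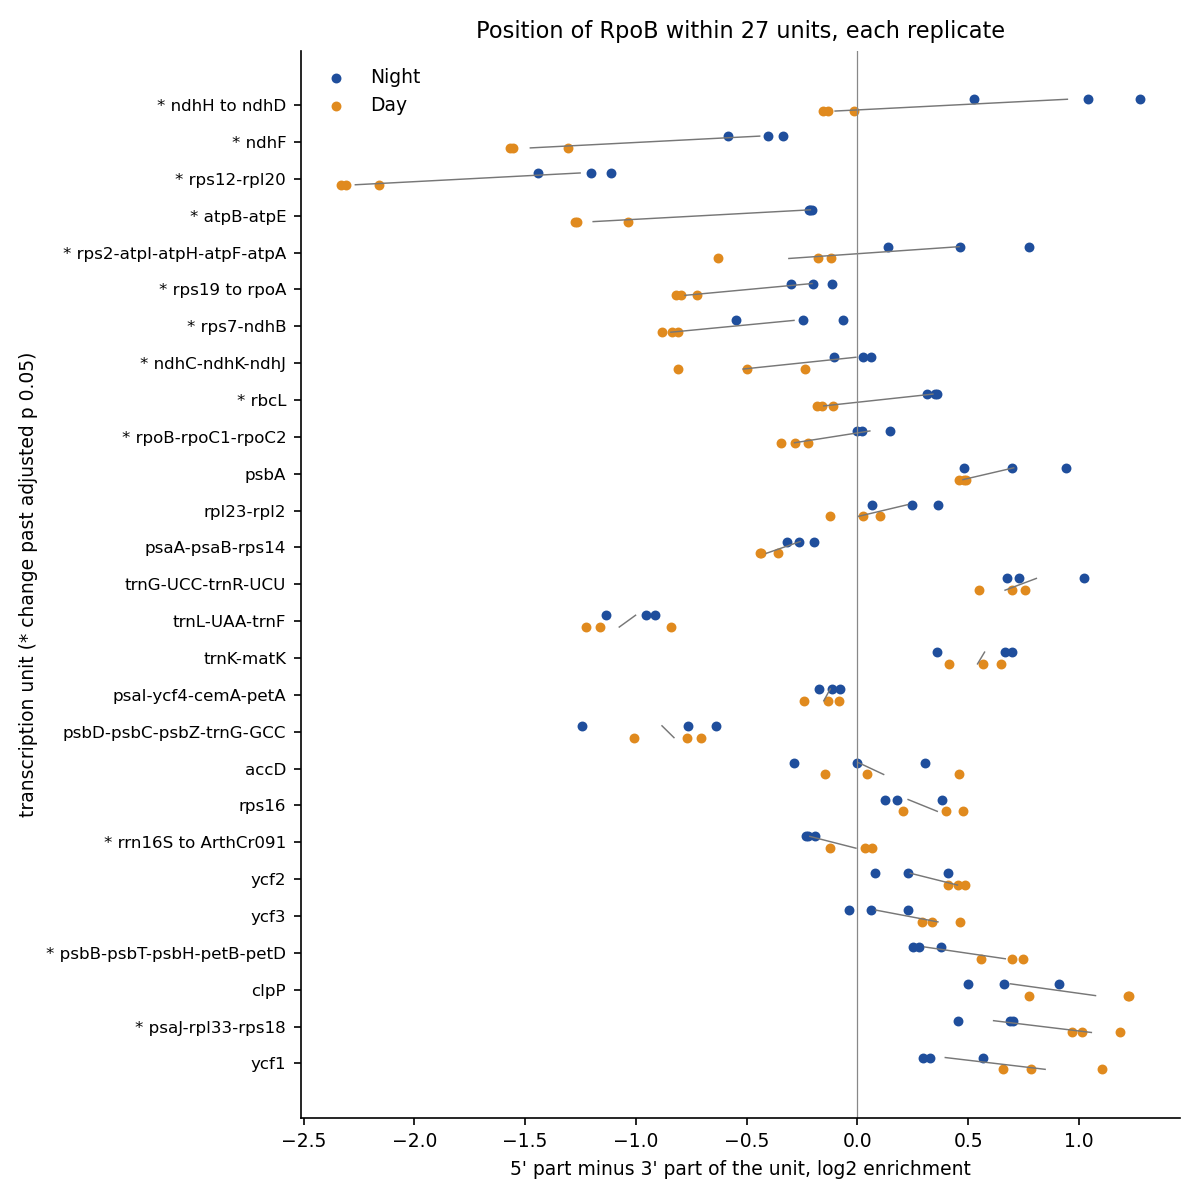
Gradient of each Night and Day replicate (log2 enrichment of the 5′ part minus that of the 3′ part) in the 27 units of at least 1000 bp, with a grey line joining the means and an asterisk where the change passed an adjusted p of 0.05. In the top rows, such as the ndhH to ndhD operon with a change of 1.05, Night points lie to the right of Day points; at the bottom, psaJ-rpl33-rps18 moved the other way by −0.44.

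Windows of 50 bp placed the departures more closely. The change passed for 1820 of 2564 windows (71%), 1586 higher (61.9%) and 234 lower (9.13%) at Night. Fewer, 572 (22.3%) left the line, 208 (8.11%) above and 364 (14.2%) below. Of the windows above, 46.2% held no gene, compared with 11.8% of those below and 26.5% of all windows. Within 250 bp of a tRNA gene lay 44.2% of the windows above, 34.9% of those below and 16.8% of all windows. Windows that touched protein genes only made up 35.1% of those above, 51.6% of those below and 63.5% of all. Adjacent windows share reads, so windows are not independent sites. They formed 36 runs above, with a median length of 225 bp and a maximum of 1250 bp, and 31 runs below, with a median of 250 bp and a maximum of 3300 bp.

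Runs were selected by their departure, and a summit is the window of a run farthest from the line. That choice favours separated replicates at summits, so summit values are a description only. Over all 2564 windows the change passed for 71%. The longest runs above lay at tRNA genes, just before units, or over the peak inside the NDH operon. The longest, of 25 windows (47401 to 48650), covered the end of trnL, the spacer and trnF, with its summit in the spacer. The summit window (47601 to 47650) had 4.04, 4.45 and 3.69 at Night, against 3.38, 3.23 and 2.58 by Day. The Night values were the higher ones throughout, and the departure was 1.93. The next were 16 windows before and over the start of trnG (ArthCt092, 8251 to 9050) and 12 windows over trnG (ArthCt116) and trnfM (36351 to 36950).

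Also 12 windows long was a run at the junction of ndhH and ndhA (121801 to 122400), with the largest departure of any window at its summit (122051 to 122100). There the enrichment was 3.25, 3.44 and 2.42 at Night, against 0.79, 0.82 and 0.61 by Day. All Night values exceeded all Day values by a wide margin, and the departure was 2.30. The summit lay 1116 bp from the 5′ end of the operon, at the end of ndhH and just before ndhA. The 8 windows of this run inside ndhH averaged 1.24 at Night and −1.05 by Day, a departure of 1.59. The other 16 windows of ndhH averaged −0.74 at Night and −2.58 by Day, a departure of 0.52. The run was itself chosen by its departure, so these values are a description of the gene and no comparison.

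Then came 3 runs of 10 windows each. They covered trnT (ArthCt098) and the 368 bp before it (31001 to 31500), the divergent pair trnV (ArthCt103) and trnM (51651 to 52150), and the start of rbcL with the 257 bp before it (54701 to 55200). In the rbcL run the summit window lay 182 bp before the coding start, with 3.19, 3.64 and 2.91 at Night, against 2.75, 2.86 and 2.31 by Day. Night was higher without overlap in this window, which was chosen by its departure of 1.37. A run of 8 windows (26951 to 27350), described after its values were seen, held no gene and ended 23 bp before trnC, and its summit departed by 1.66.

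The longest runs below lay inside transcribed bodies. A run of 66 windows (101051 to 104350) covered rrn16S, trnI (ArthCt107) and most of trnA, with means of 0.63, 0.44 and 0.81 at Night, against 1.68, 1.58 and 2.01 by Day. Another of 34 windows (104601 to 106300) lay in rrn23S. A run of 51 windows (37401 to 39950) covered psaB and the end of psaA, with means of −0.78, −1.01 and −0.60 at Night, against −0.19, −0.51 and −0.87 by Day. Of the 45 windows of psaB, 44 were below, and of the 45 of psaA, 36. The last 2 of the 5 longest covered the end of psbD with most of psbC (37 windows, 33451 to 35300) and the middle of trnK-matK (21 windows, 2701 to 3750). All 29 windows of psbC were below the line.

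Windows before and inside units were also counted. In the 500 bp before the 27 longer units 15% of windows were above and 6.8% below. The shares were 8.69% and 17% in their 5′ parts, 3.85% and 18.6% in their middle parts, and 4.33% and 15.4% in their 3′ parts. The 250 bp before each unit were then set against the unit from 500 bp onward, as a description with no test. Before rbcL, enrichment was 2.74, 3.06 and 2.38 at Night, against 2.23, 2.30 and 1.76 by Day, whereas in its body it was 0.51, 0.59 and 0.50 at Night, against 0.46, 0.30 and 0.22 by Day. The departure was 1.18 before the gene and 0.05 in its body. At psaA-psaB-rps14 enrichment before the unit was 1.36, 1.41 and 1.21 at Night, against 1.97, 1.96 and 1.48 by Day. The departure there was −0.04, compared with −0.68 in the body.

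The same order was seen at trnK-matK, with a departure of 0.27 before the unit and −0.58 in its body, at psbA, with 0.41 and −0.25, and at the rRNA operon, with −0.24 and −0.61. ndhC-ndhK-ndhJ had 0.71 before the unit and 0.15 in its body. It was not general: at ycf3 the values were −0.68 before and −0.09 in the body, and at accD −0.46 and 0.04. The enrichment before the unit minus that in the body was higher in every Night than every Day replicate in 8 of 26 units, lower in 7 and overlapping in 11, among them rbcL, trnK-matK, psaA-psaB-rps14, ndhC-ndhK-ndhJ and the rRNA operon. Its median over units was 0.52 at Night and 0.53 by Day. Over the 26 units where both stretches could be measured, the median departure was 0.26 before the unit and 0.04 in the body. Stretches before a unit can hold parts of a neighbouring unit.

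**Figure D5:**
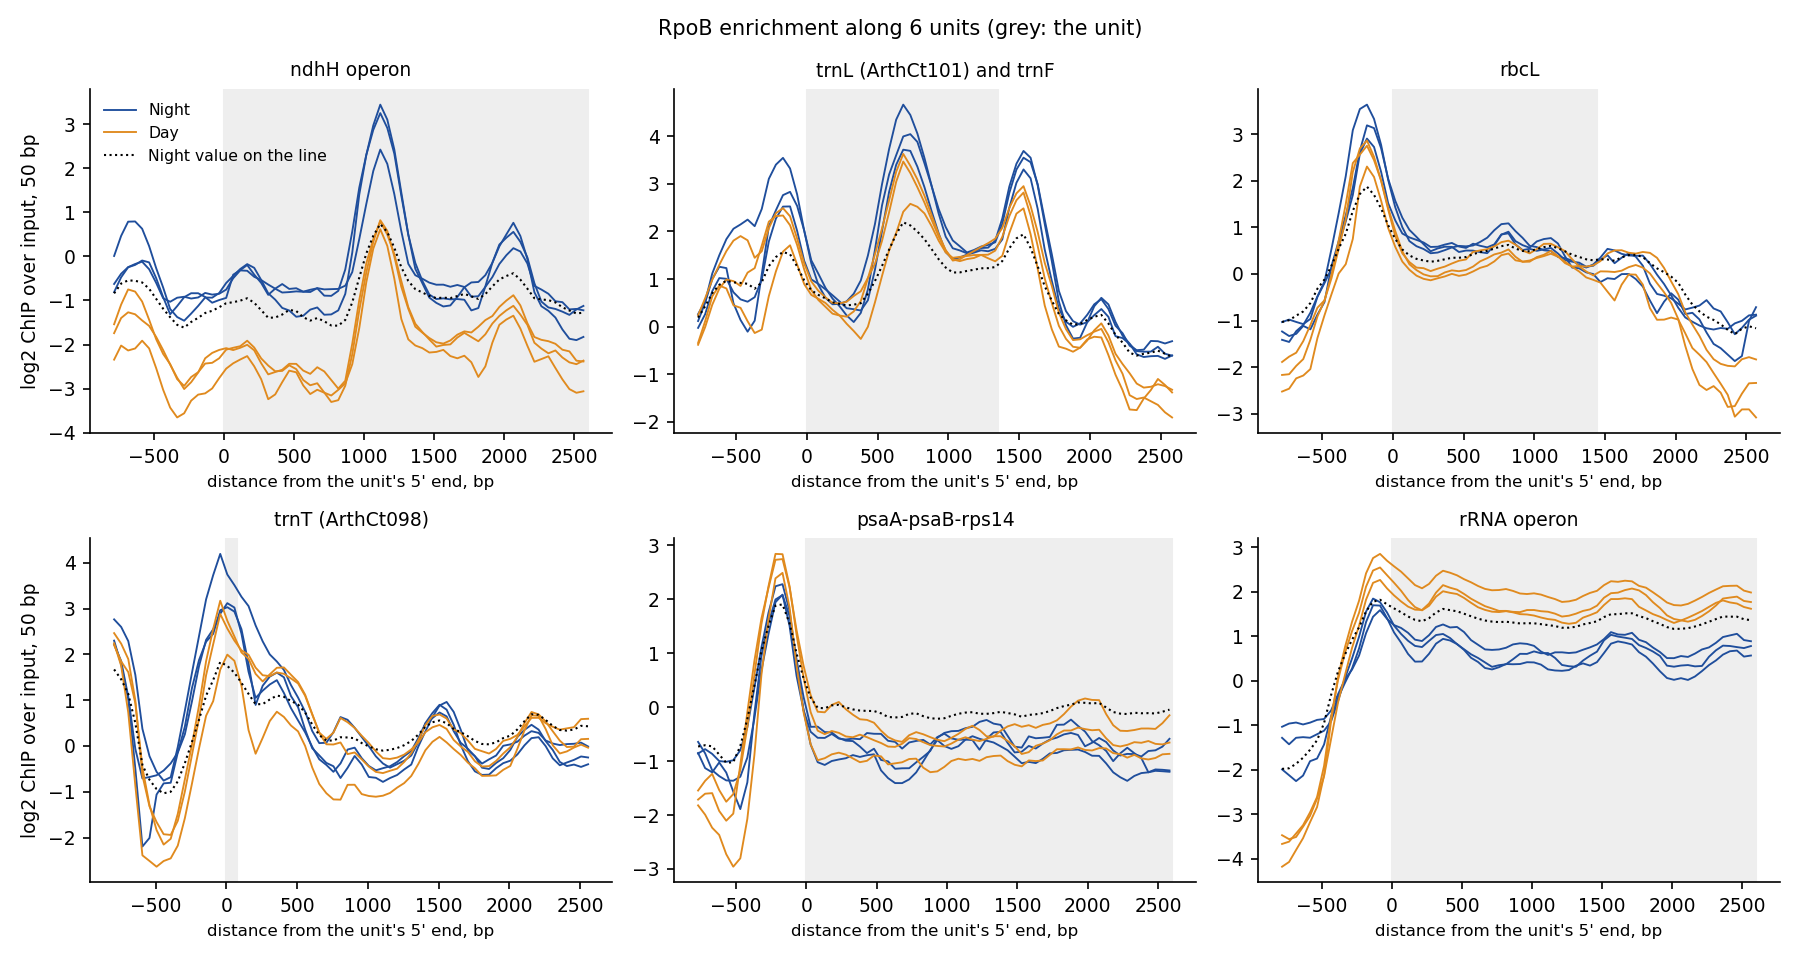
Enrichment in 50 bp windows (log2 ChIP over input) against distance from the 5′ end of 6 units, shaded in grey, for each Night and Day replicate, with a dotted line for the Night value that the line over genes gives. Night exceeds the dotted line at the peak 1116 bp into the ndhH operon, in the spacer before trnF and in the peak before rbcL, and runs below it along the bodies of psaA-psaB-rps14 and the rRNA operon.

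Replicates of a condition differed in how far sequence without genes stood above genes. Windows without a gene exceeded windows with one by 0.49, 0.99 and 0.46 in the Night replicates, against 0.82, 0.95 and 0.55 in the Day replicates. Night replicate 2 was the highest of its group in this measure and Day replicate 3 the lowest of its own. Without Night replicate 2, 674 windows left the line, 339 above and 335 below, and without Day replicate 3 the count was 703, with 246 above and 457 below. Among the genes farthest from the line, all 16 departures kept their sign and their call when any single library was left out. trnT, which lies in one of the stretches where these libraries differed, departed by 1.46 to 1.69 in these refits, and ndhH by 1.13 to 1.54.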

How the data were processed

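The authors deposited read coverage at each of 154477 plastid positions as whole numbers with no scaling to library size, 1 column per library; this signal, in other words raw coverage per position, is the only measurement used. Per the submitters' processing notes, Trim Galore 0.4.1, Bowtie2 2.2.8.9, bedtools 2.25.0 and build TAIR10 were used; duplicate handling and placement of repeat reads are not given in the sources used here. Neighbouring positions share reads, so no count model or counting interval is given.

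Gene positions came from a RefSeq gene table of TAIR10.1, checked on the mirror symmetry of the inverted repeat (largest offset 0 bp). Its 129 plastid entries gave 113 genes, of which 15 were merged over both copies. Mean coverage per gene, unit or window was divided by the library total, 1 was added on a scale of 1e+09 per total, and log2 was taken. Unit membership, gene order and strand are textbook knowledge, since the table gives no strand; trnP-trnW and rps12-rpl20 are written in that order.

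limma 3.58.1 in R 4.3.3 (group means of 12 libraries, trended eBayes) tested Night ChIP minus input minus the same by Day, and the departure with slope and intercept taken as known, adjusted over all features of a kind, with a threshold of 0.05. Scripts were tested on simulated data. Tables and plots used Python 3.11.15, numpy 2.4.6, pandas 2.3.3, scipy 1.17.1 and matplotlib 3.10.9. Alternatives were other scalings, pseudocounts (0.1 and 10), lines, window sizes, a length minimum of 300 bp, a replicate block and leaving out each library. Named were the 6 largest rises and falls, the 8 genes farthest on each side of the line, 7 fixed genes, units past a threshold and the 5 longest runs a side (ties included); other genes are given as members of their group or unit. Members, lists, units and tests were chosen with earlier results of these data known. The 24 seedling libraries were not used here.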

Additional observations from a re-analysis of the deposited data

Results flagged for a closer look

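For 6 genes every Night replicate lay on one side of input and every Day replicate on the other, and the change passed the threshold. This position depends on the scaling to the library total. ndhH changed by 2.17, with 0.86, 0.87 and 0.24 at Night and −1.40, −1.45 and −1.69 by Day. rpl32 changed by 1.41 and ndhC by 1.10, both above input at Night and below it by Day. rpl20 changed by 0.79 and ndhJ by 0.53 in the same way, and neither departure from the line passed (0.30 and 0.10). psbC changed by −0.46 and was below input at Night and above it by Day.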

How the results depend on the processing

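The narrowing kept its direction under all alternatives tried, with a difference of SDs between −0.60 and −0.47 when single libraries were left out and a slope between 0.57 and 0.63. With genes under 300 bp left out the slope was 0.50, with 52 changes and 21 departures past the threshold among 62 genes. Windows of 25 bp gave 3625 changes and 1138 departures, and windows of 100 bp gave 909 and 293, since their number differs. Inputs fitted alone differed for 15 genes.

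Leaving out single libraries, the calls ran between 77 and 86 for gene changes, 31 and 51 for gene departures, 33 and 40 for unit changes, 16 and 22 for unit departures and 11 and 15 for gradients. For windows they ran between 1703 and 1894 changes and between 443 and 703 departures, and for inputs they were 0 throughout.

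Signs turned for psbD, whose change ran between −0.12 and 0.075 over the libraries left out: it was 0.032 without Night ChIP replicate 2, 0.075 without Day ChIP replicate 1, 0.0011 without Day ChIP replicate 2 and 0.0095 without Day input replicate 2. psaA changed by −0.28 to 0.0497, the highest without Day ChIP replicate 1. rbcL changed by −0.20 when libraries were centred and by −0.097 with scaling outside the repeats, and the departure of psbA was 0.25 with genes under 300 bp left out. Gradients over 500 bp ends turned for rpoB-rpoC1-rpoC2 (−0.18) and the psbB operon (0.035). Of 1362 alternative values of single loci 1305 kept sign and call. The cause of these differences was not tested.

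Deviations of same-numbered Night and Day ChIP libraries correlated at −0.07, 0.25 and 0.03, and those of different numbers between −0.33 and 0.26. So few libraries cannot decide whether replicate numbers pair them. Pairing of a ChIP library with an input was not examined. With the replicate block, 80 gene changes, 39 gene departures, 37 unit changes, 17 unit departures, 14 gradients, 1895 window changes, 628 window departures and 0 input differences passed.

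Refitting the enrichment values of the 6 ChIP libraries alone, chosen after seeing the data, gave 78 gene changes and 38 departures, all among those called with all libraries. The shallowest library was Night ChIP replicate 1, with a mean coverage of 102.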
